A study of Mus musculus with 18 samples.

Results

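The TGF-beta superfamily signals between cells through secreted dimers. Here 10 genes of its network were followed in mouse embryonic fibroblasts labelled as given a vehicle or a drug that causes endoplasmic reticulum (ER) stress. They are the ligand genes Tgfb1, Tgfb2, Tgfb3, Inhba and Bmp4, the receptor genes Tgfbr1 and Tgfbr2, the genes Ltbp1 and Ltbp2 for latent TGF-beta binding proteins, and Bmp1, which codes for an extracellular proteinase. The members were chosen by name, with earlier results of these data known. Each is a locus whose gene field holds that symbol, and all 10 were found, each as a locus of its own, among 51499 loci in the table. Every member passed the filter used below, a mean over the groups of 1 FPKM or more, as did 11929 of all loci. FPKM are fragments per kilobase of transcript, scaled for the depth of a library. How the libraries here were scaled is not stated in the sources used. Because transcript length is divided out, FPKM can also be set side by side between genes.

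TGF-beta is secreted in a latent complex with its own propeptide, and LTBP1 ties that complex to the extracellular matrix until it is released. Free TGF-beta binds the type II receptor TGFBR2, which then phosphorylates the type I receptor TGFBR1, and this receptor in turn phosphorylates SMAD2 and SMAD3. BMP ligands use other receptors and act through SMAD1, SMAD5 and SMAD9. In fibroblasts the TGF-beta arm is known for raising collagens and the contractile genes of myofibroblasts, and the BMP arm for raising the Id genes.

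The series holds 18 RNA-seq libraries in 6 groups of 3, fibroblasts labelled Ago2+/+ or Ago2-/- that received DMSO as the vehicle, tunicamycin, or thapsigargin at 500 nM. AGO2 is an Argonaute protein that carries small RNAs to their target transcripts. Tunicamycin blocks N-linked glycosylation and thapsigargin blocks the calcium pump of the ER, so both cause ER stress. The cells were received as gifts and were not authenticated, the Ago2-/- cells being checked for missing AGO2 protein by the study, and the study states in general terms that its experiments had biological replicates, while the labels do not say whether the libraries of a group came from separate cultures. The authors' table gives 1 pooled FPKM per locus and group and no value per library, so no SD or standard error could be computed and no test was run on these values. The authors' own test results, which the table also holds, were not used. A difference is therefore described by its size, as the log2 ratio of FPKM + 1 between 2 groups, and is counted when it reaches 2-fold in either direction.

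The group labels need care. For 4 of the 18 libraries the genotype labels contradict each other (replicate 2 of each Ago2+/+ group and replicate 3 of the Ago2-/- DMSO group). The titles and the table name the groups called Ago2+/+ here DCR1, and Ago2+/+ is the genotype tag of the libraries so titled. Each library was grouped by its title, since pooled values give no way of leaving one out. Ago2 itself was lowest in Ago2+/+ tunicamycin (5.75 FPKM) and Ago2-/- DMSO (5.61 FPKM), and lay between 15.5 and 22.1 FPKM in the rest, with 15.5 and 20.7 in the other groups labelled Ago2-/-. Its level thus did not follow the genotype label. Uty, Kdm5d, Ddx3y and Eif2s3y, which sit on the Y chromosome, had an FPKM of 0 in 4 groups and lay between 6.03 and 32.3 FPKM in the groups labelled Ago2+/+ thapsigargin and Ago2-/- tunicamycin, and the locus that holds Xist and 2 other annotated genes lay at 46.6 and 33.5 FPKM in Ago2+/+ DMSO and Ago2-/- thapsigargin and at or below 0.0574 in the others. The ER chaperone gene Hspa5 ranged from 3677 to 7682 FPKM, highest in Ago2-/- DMSO and lowest in Ago2-/- thapsigargin. Herpud1, also checked, ranged from 207 FPKM in Ago2-/- thapsigargin to 492 in Ago2-/- tunicamycin. Ddit3 ranged from 237 to 349 FPKM, with 237 in Ago2+/+ DMSO and 339 in Ago2-/- DMSO. In the Ago2+/+ label, Hspa5, Herpud1 and Ddit3 were each higher with either stressor than in DMSO. In the Ago2-/- label each was lower with thapsigargin than in DMSO: Hspa5 3677 against 7682 FPKM, Herpud1 207 against 334 and Ddit3 253 against 339. With tunicamycin in that label Hspa5 was lower (5155), and Herpud1 (492) and Ddit3 (349) were higher. Their levels thus did not follow the treatment label throughout. By Ago2, the Y chromosome genes and the Xist locus the 6 groups fell into 3 pairs that cross both labels. The pairs were Ago2+/+ tunicamycin with Ago2-/- DMSO, Ago2+/+ thapsigargin with Ago2-/- tunicamycin, and Ago2+/+ DMSO with Ago2-/- thapsigargin. Every group below is named by its label only, and an effect of treatment or genotype cannot be told apart from this crossing of the labels.

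Fibroblast identity was checked on markers. Of 8 fibroblast markers, 7 reached 1 FPKM in some group, with Vim at 952 to 2634 FPKM, while Thy1 was listed at 0 throughout, and the summed marker level was 1596 to 2975 FPKM. Several of them differed widely between groups, with Col1a1 at 5.97 to 651 FPKM and Fn1 at 46.4 to 600. Pdgfrb was below 1 FPKM in Ago2+/+ DMSO (0.540) and Ago2-/- thapsigargin (0.799). Pdgfra was below 1 FPKM in Ago2+/+ tunicamycin (0.488) and Ago2-/- DMSO (0.903). No epithelial marker of 5 (sum 0.189 to 1.34 FPKM) and no endothelial marker of 4 (sum 0.121 to 0.465 FPKM) reached 1 FPKM. Of 5 macrophage and leukocyte markers only Cd68 did (sum 1.24 to 2.38 FPKM), with Adgre1 at 0 in every group. Among the markers of other cell types, those of smooth muscle and myofibroblasts were the exception, with 4 of 5 reaching 1 FPKM. Their sums also differed widely between groups, as given beside the ligands.

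Among the ligands, Tgfb1 codes for the isoform found in most tissues. It measured 9.30 FPKM under Ago2+/+ DMSO, 16.9 under Ago2+/+ tunicamycin, 6.49 under Ago2+/+ thapsigargin, 19.6 under Ago2-/- DMSO, 7.62 under Ago2-/- tunicamycin and 6.61 under Ago2-/- thapsigargin. It was thus highest in the Ago2-/- DMSO and Ago2+/+ tunicamycin groups, with a step of 1.73-fold on FPKM + 1 down to the next group, and the 4 lower groups lay between 6.49 and 9.30 FPKM. The highest and the lowest group differed 2.75-fold.

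Tgfb2 and Tgfb3, the other isoforms, had a different order. Tgfb2 had 1.38 FPKM under Ago2+/+ DMSO, 4.14 under Ago2+/+ tunicamycin, 17.5 under Ago2+/+ thapsigargin, 3.26 under Ago2-/- DMSO, 19.0 under Ago2-/- tunicamycin and 1.51 under Ago2-/- thapsigargin. Tgfb3 stood at 1.82, 3.97, 19.3, 3.06, 19.5 and 5.26 FPKM in the same groups. Both isoforms were high in the same 2 groups, Ago2+/+ thapsigargin and Ago2-/- tunicamycin, which lay 3.59-fold (Tgfb2) and 3.25-fold (Tgfb3) above the next group. Their ranges over the 6 groups were 8.41-fold and 7.27-fold. The isoform in excess therefore differed between groups: Tgfb1 made up 74.4% of the summed FPKM of the 3 isoforms under Ago2+/+ DMSO, 67.5% under Ago2+/+ tunicamycin, 75.7% under Ago2-/- DMSO, 49.4% in Ago2-/- thapsigargin, and only 15.0% and 16.5% in Ago2+/+ thapsigargin and Ago2-/- tunicamycin. The sum itself was 12.5, 25.0, 43.3, 26.0, 46.1 and 13.4 FPKM in the order of the groups given for Tgfb2. These shares and sums include Tgfb3, whose locus also covers another gene, as given below.

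The myofibroblast markers moved with Tgfb2 and Tgfb3. Their summed level was 2418 FPKM in Ago2+/+ thapsigargin and 1800 in Ago2-/- tunicamycin, against 2.49 to 9.00 FPKM in the other 4 groups. Acta2, the smooth muscle actin gene, reached 1644 and 1252 FPKM in those 2 groups and at most 3.77 elsewhere. Tagln (648 and 444 FPKM) and Cnn1 (126 and 105 FPKM), for the actin-binding proteins transgelin and calponin, did likewise. Myh11, the defining heavy chain of mature smooth muscle, stayed at or below 0.0730 FPKM in every group, and Des was highest in Ago2+/+ DMSO at 2.95 FPKM. The part of these cells, or of this state, in the levels of Tgfb2, Tgfb3 and Ltbp2 was not tested, and in bulk RNA fewer cells of a type and less RNA per cell cannot be told apart. The genes of the Y chromosome were listed above 0 in the same 2 groups, and their part was not tested either.

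Inhba codes for the beta A subunit of the activins, ligands that also signal through SMAD2 and SMAD3. It had 6.25 FPKM under Ago2+/+ DMSO, 12.8 under Ago2+/+ tunicamycin, 13.7 under Ago2+/+ thapsigargin, 12.8 under Ago2-/- DMSO, 9.04 under Ago2-/- tunicamycin and 3.61 under Ago2-/- thapsigargin. Its low values came in Ago2-/- thapsigargin and Ago2+/+ DMSO, and the other 4 groups lay between 9.04 and 13.7 FPKM.

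Bmp4, a ligand of the BMP arm, had 3.35 FPKM under Ago2+/+ DMSO, 22.0 under Ago2+/+ tunicamycin, 4.57 under Ago2+/+ thapsigargin, 19.2 under Ago2-/- DMSO, 7.41 under Ago2-/- tunicamycin and 4.43 under Ago2-/- thapsigargin. It shared its 2 high groups with Tgfb1, and the step below them was larger, 2.41-fold. Over all groups it ranged 5.28-fold.

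Both receptor genes followed Tgfb1 and Bmp4 over a smaller range. Tgfbr1, the type I receptor gene, had 6.80 FPKM under Ago2+/+ DMSO, 12.0 under Ago2+/+ tunicamycin, 6.94 under Ago2+/+ thapsigargin, 12.7 under Ago2-/- DMSO, 7.25 under Ago2-/- tunicamycin and 6.92 under Ago2-/- thapsigargin. Tgfbr2, the type II receptor gene, stood at 14.7, 31.9, 15.5, 26.5, 17.7 and 15.0 FPKM in the same order. In both, the Ago2+/+ tunicamycin and Ago2-/- DMSO groups were high and the other 4 groups were nearly level, at 6.80 to 7.25 FPKM for Tgfbr1. With a highest-to-lowest ratio of 1.75, Tgfbr1 was the member that varied least, and Tgfbr2 had the next smallest ratio, 2.1.

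The latency proteins differed from each other in level and in pattern. Ltbp1 was the member with the highest level in every group, 73.4 FPKM under Ago2+/+ DMSO, 164 under Ago2+/+ tunicamycin, 117 under Ago2+/+ thapsigargin, 165 under Ago2-/- DMSO, 99.3 under Ago2-/- tunicamycin and 77.1 under Ago2-/- thapsigargin. Ltbp2, whose protein lies on elastic microfibrils and does not bind latent TGF-beta, stood at 0.190, 3.92, 24.0, 3.81, 24.0 and 0.680 FPKM in the same groups. Ltbp1 was highest in the groups where Tgfb1 was highest, and Ltbp2 in the groups where Tgfb2 and Tgfb3 were. The range of Ltbp2 was 21.00-fold on FPKM + 1, the widest of the members, with a step of 5.09-fold below its 2 high groups. Because its lowest level is near 0, this size depends on the constant added, and the plain ratio of highest to lowest FPKM was 126. The ratio of Ltbp1 to Ltbp2 FPKM accordingly went from 386 in Ago2+/+ DMSO to 4.14 in Ago2-/- tunicamycin.

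Bmp1 codes for procollagen C-proteinase, which trims fibrillar procollagens and also cuts LTBP1. It had 21.1 FPKM under Ago2+/+ DMSO, 13.0 under Ago2+/+ tunicamycin, 29.3 under Ago2+/+ thapsigargin, 11.5 under Ago2-/- DMSO, 31.3 under Ago2-/- tunicamycin and 18.9 under Ago2-/- thapsigargin. It was lowest where Tgfb1, Bmp4 and the receptors were highest.

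**Figure D1:**
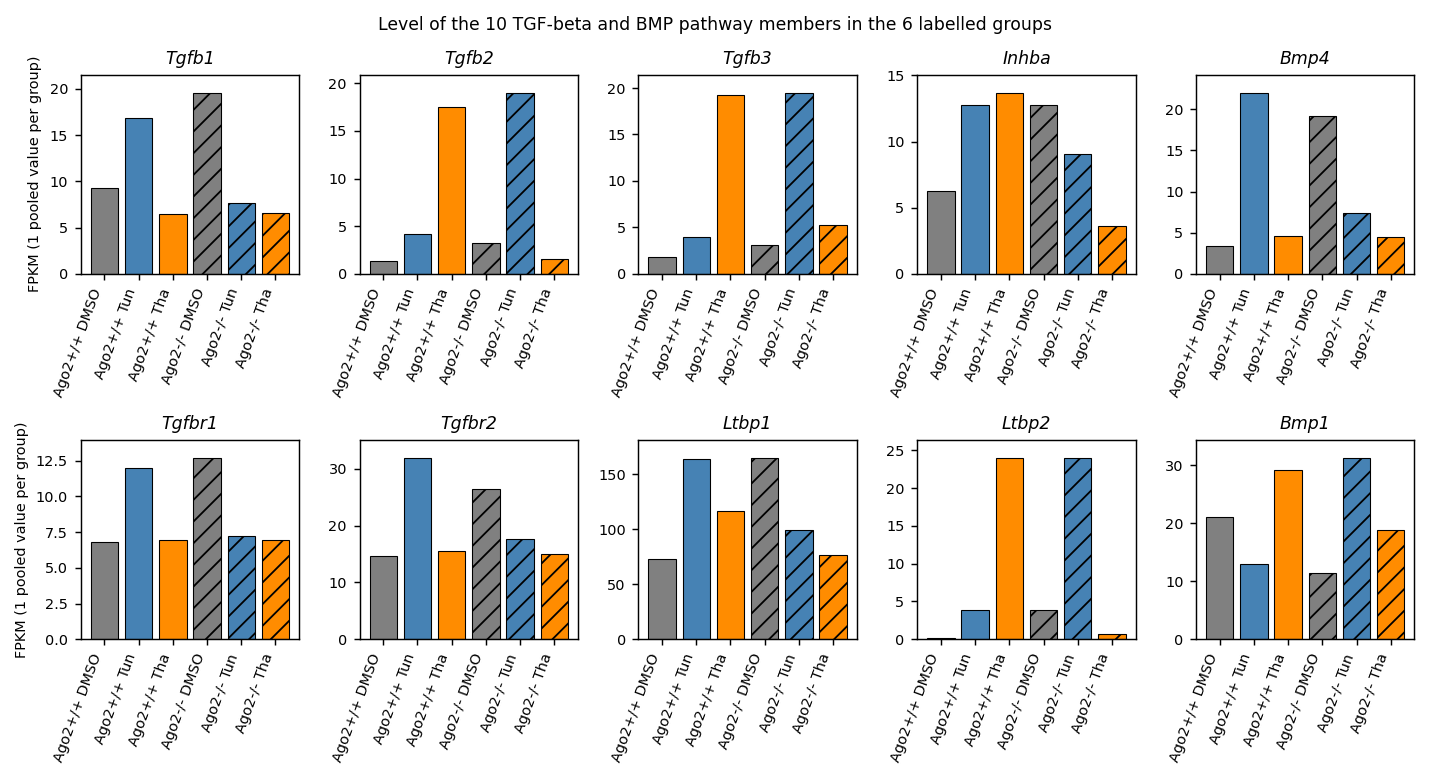
FPKM of each member (y axis, starting at 0, scaled per panel) in the 6 labelled groups (x axis; Tun, tunicamycin; Tha, thapsigargin; hatched bars, groups labelled Ago2-/-), each bar being 1 pooled value with no error bar. Tgfb2, Tgfb3 and Ltbp2 share 2 high groups, Ago2+/+ Tha and Ago2-/- Tun, while Tgfb1, Bmp4, Tgfbr1, Tgfbr2 and Ltbp1 are highest in Ago2+/+ Tun and Ago2-/- DMSO.

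In all, 9 of the 10 members differed at least 2-fold between their highest and lowest group, the exception being Tgfbr1, against 32.3% of all loci past the filter. Because the members were chosen with earlier results of these data known, this contrast is not a test of the pathway. As a description over the 6 groups, which are pooled values and share the pairs named above, Pearson's r of log2(FPKM + 1) was 0.99 between Tgfb2 and Ltbp2, 0.92 between Tgfb2 and Tgfb3, 0.99 between Bmp4 and Tgfbr2, 0.97 between Bmp4 and Tgfbr1 and 0.96 between Tgfb1 and Tgfbr1. Between Tgfb1 and Bmp1 it was -0.88, and between Tgfb1 and Tgfb2 it was -0.30.

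Such likeness was common among genes. Of 7253 single-gene loci whose mean reached 10 FPKM, 245 had an r above 0.95 with Ltbp2, 227 with Tgfb1 and 411 with Bmp1, so a close match is not particular to any member. The loci most like Ltbp2 were Csrp2, which codes for a LIM protein of smooth muscle (r = 0.9996, n = 6 groups; 10.4, 29.4, 97.3, 29.6, 104 and 13.7 FPKM in the order of the groups used above), and the tropomyosin gene Tpm1 (r = 0.9981; 199 to 945 FPKM). Those most like the other members were Hexa and Golt1b for Tgfb2, Fbxo5 and Emc10 for Tgfb3, Rc3h2 and Mapkap1 for Tgfb1, Spryd3 and Mrpl9 for Inhba, Armt1 and Sugp1 for Bmp4, Fam193a and Rere for Tgfbr2, Dusp7 and E2f3 for Ltbp1, and Zfp385a and Nmral1 for Bmp1, with r from 0.9862 to 0.9996. Most of these moved less than the member they resembled: Armt1 lay between 10.8 and 12.2 FPKM while Bmp4 lay between 3.35 and 22.0.

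The positions of the members are given on GRCm38. Tgfb1 lies at chr7:25687002-25705077 on the plus strand, Tgfb2 at chr1:186622792-186707033 on the minus strand, Inhba at chr13:15807243-16032275 (plus), Bmp4 at chr14:46379414-46390669 (minus), Tgfbr1 at chr4:47353222-47414931 (plus), Tgfbr2 at chr9:116084293-116175360 (minus), Ltbp1 at chr17:75005568-75392512 (plus), Ltbp2 at chr12:84783212-84879755 (minus) and Bmp1 at chr14:70474558-70520234 (minus). For Tgfb3 the locus of the table, chr12:85824659-86079754 (minus), spans 255.1 kb, whereas the annotated gene spans 22.3 kb, and it also covers the protein-coding gene Ttll5. The locus of Inhba spans 225.0 kb against 19.8 kb for the gene, and that of Bmp4 overlaps the annotated gene Gm15217. The sources used here do not say whether counting used strand. Reads of the overlapping genes therefore cannot be told apart from those of Tgfb3 and Bmp4, whose values are uncertain to that extent. Overlap was searched among protein-coding genes only, and none was found in the Inhba locus. What else lies in that wider locus was not checked, so the values of Inhba are uncertain too.

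Promoter windows, 250 bases before to 50 after the transcription start, were available for 8 of the 10 members from RefSeq on GRCm38.p6. Those of 4 members are shown because these genes had the 2 contrasting patterns, Tgfb2 and Ltbp2 being high in one pair of groups and Tgfb1 and Bmp4 in another. They lie at chr1:186705940-186706239 (Tgfb2, minus strand), chr12:84876442-84876741 (Ltbp2, minus), chr7:25686752-25687051 (Tgfb1, plus) and chr14:46390620-46390919 (Bmp4, minus), and are written 5′ to 3′ on the strand of the gene. Capitals mark every match, on either strand, to the motifs searched.
Tgfb2: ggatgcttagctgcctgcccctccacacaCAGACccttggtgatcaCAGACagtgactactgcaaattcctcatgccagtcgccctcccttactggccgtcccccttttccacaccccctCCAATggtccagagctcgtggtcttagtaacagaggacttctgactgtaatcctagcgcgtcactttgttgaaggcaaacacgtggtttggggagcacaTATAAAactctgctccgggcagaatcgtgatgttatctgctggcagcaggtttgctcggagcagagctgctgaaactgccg
Ltbp2: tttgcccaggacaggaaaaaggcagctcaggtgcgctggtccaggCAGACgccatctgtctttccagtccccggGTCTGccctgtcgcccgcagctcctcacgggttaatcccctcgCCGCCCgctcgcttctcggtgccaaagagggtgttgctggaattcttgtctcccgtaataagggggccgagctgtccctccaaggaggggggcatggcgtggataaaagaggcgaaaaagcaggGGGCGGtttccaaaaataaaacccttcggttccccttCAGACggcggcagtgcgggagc
Tgfb1: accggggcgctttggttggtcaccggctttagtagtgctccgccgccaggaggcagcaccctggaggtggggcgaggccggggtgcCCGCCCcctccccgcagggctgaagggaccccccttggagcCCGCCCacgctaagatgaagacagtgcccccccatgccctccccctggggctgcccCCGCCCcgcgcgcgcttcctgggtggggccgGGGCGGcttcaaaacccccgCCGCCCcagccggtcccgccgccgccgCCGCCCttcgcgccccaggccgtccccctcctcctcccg
Bmp4: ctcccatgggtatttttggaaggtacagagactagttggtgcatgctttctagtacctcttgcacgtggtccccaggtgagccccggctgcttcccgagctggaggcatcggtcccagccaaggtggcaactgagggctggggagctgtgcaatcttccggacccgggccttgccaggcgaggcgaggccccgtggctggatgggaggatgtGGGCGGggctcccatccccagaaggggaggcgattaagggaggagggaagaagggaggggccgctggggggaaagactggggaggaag

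The motifs searched on both strands were the Smad box CAGAC, the GC box GGGCGG, the TATA box TATAAA, the AP-1 site TGANTCA, the cyclic AMP response element TGACGTCA, the CCAAT box CCAAT and the ER stress element, which contains a CCAAT box. The Tgfb2 window held 2 Smad boxes, 1 CCAAT box and 1 TATA box that begins at position -31 from the start site, with a GC content of 54.3%. The Ltbp2 window held 3 Smad boxes and 2 GC boxes at a GC content of 61.0%. The Tgfb1 window held 6 GC boxes and none of the other motifs at a GC content of 77.0%, and the Bmp4 window held 1 GC box at 64.0%. The Smad box did not divide the members by pattern: 6 of the 10 windows of members held it, among them those of Tgfb2 and Ltbp2 but also those of Tgfbr2 and Ltbp1 and 1 of the 2 windows of Tgfbr1, and 49.6% of 32851 windows of all genes did. The share was 35.7% for the GC box, 13.6% for the TATA box, 37.4% for the CCAAT box, 7.81% for the AP-1 site, 1.79% for the cyclic AMP response element and 0.119% for the ER stress element. None of the 10 windows of members held the ER stress element or the AP-1 site. A match describes letters in the window and shows no binding.

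The first comparison asks how the members stood after tunicamycin in the groups labelled Ago2+/+. Of the 10 members, 5 were at least 2-fold higher than in DMSO and none was 2-fold lower, with 14.0% of all loci past 2-fold in either direction. The 5 were Bmp4 (log2 ratio 2.40), Ltbp2 (2.05), Ltbp1 (1.15), Tgfb2 (1.11) and Tgfbr2 (1.07). Inhba (0.93), Tgfb3 (0.82), Tgfb1 (0.79) and Tgfbr1 (0.74) were higher by less than 2-fold, and Bmp1 was the only member with a lower level (-0.66). The median log2 ratio was 1.00 over the members and 0.005 over all loci.

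After thapsigargin in the same label, 4 members were at least 2-fold higher and none 2-fold lower, against 12.9% of all loci. Ltbp2 (log2 ratio 4.39), Tgfb2 (2.95) and Tgfb3 (2.85) had the largest ratios and Inhba (1.02) lay just past the threshold. The receptor genes were almost level, at 0.03 for Tgfbr1 and 0.08 for Tgfbr2, and Tgfb1 was lower (-0.46). The members' median was 0.56 and that of all loci 0.010. These and the tunicamycin ratios share the Ago2+/+ DMSO group as their control.

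In the groups labelled Ago2-/-, tunicamycin went with 4 members at least 2-fold higher and 2 at least 2-fold lower than in DMSO, with 17.9% of all loci past 2-fold. The higher ones were Ltbp2 (2.38), Tgfb3 (2.34), Tgfb2 (2.23) and Bmp1 (1.37). The lower ones were Bmp4 (-1.27) and Tgfb1 (-1.26). Both receptor genes were lower by less than 2-fold, Tgfbr1 by a log2 ratio of -0.73 and Tgfbr2 by -0.56. The median was -0.51 over the members.

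Thapsigargin in the Ago2-/- label went with lower levels. Of the 10 members, 5 were at least 2-fold lower, Bmp4 (-1.90), Inhba (-1.58), Ltbp2 (-1.52), Tgfb1 (-1.44) and Ltbp1 (-1.09), and none was 2-fold higher, against 14.3% of all loci. Only Bmp1 (0.68) and Tgfb3 (0.63) had a higher level than in DMSO. The median was -0.94 over the members and -0.017 over all loci.

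**Figure D2:**
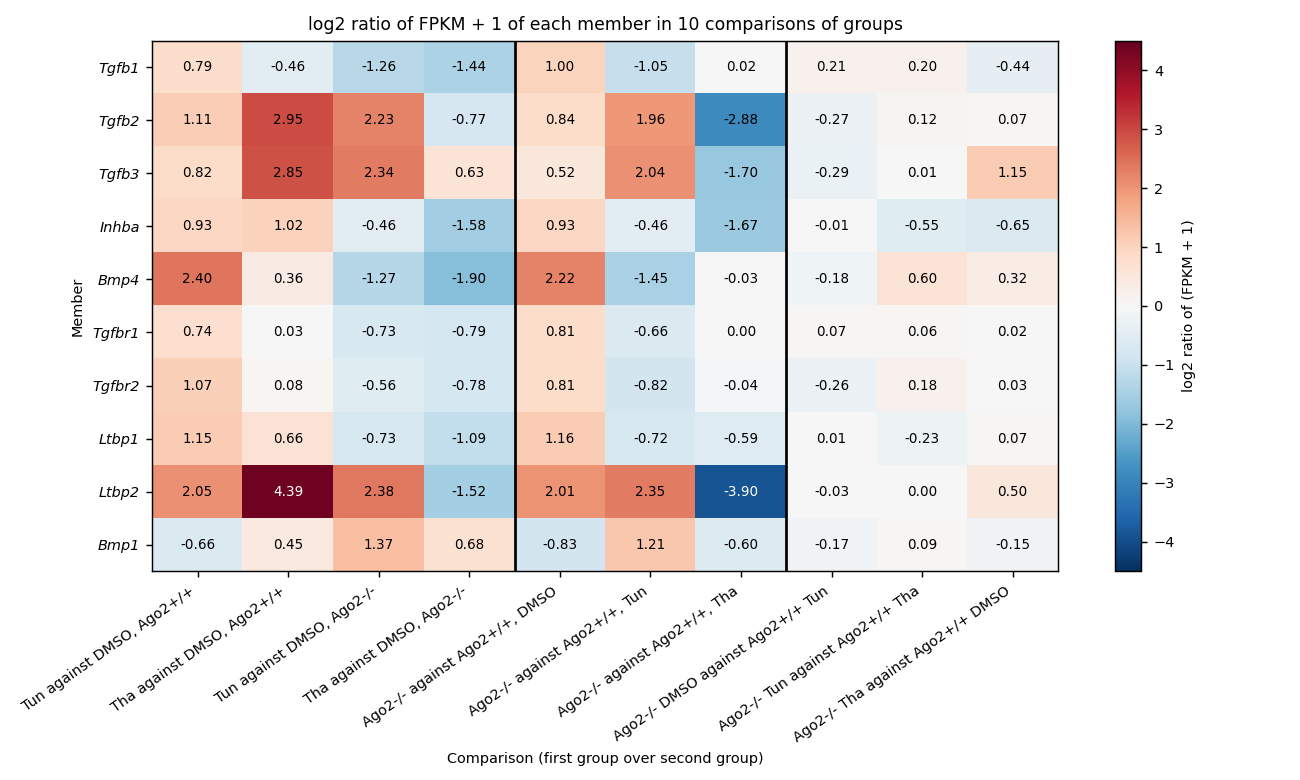
Log2 ratio of FPKM + 1 (colour and number) of each member (rows) in 10 comparisons of groups (columns), from left to right the stressors against DMSO, the labels Ago2-/- against Ago2+/+, and the 3 pairs that cross both labels. The last 3 columns are pale, with 1 value of size 1 or more, 1.15 for Tgfb3, and the Ltbp2 row holds the largest ratios, from -3.90 to 4.39.

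The design also asks whether the stress response differed with the genotype label. For tunicamycin, 7 of the 10 members had log2 ratios of opposite sign in the Ago2+/+ and Ago2-/- labels, and for thapsigargin 7 did. Over all loci past the filter the signs were opposite for 69.1% and 56.0%, so opposite signs were common among loci in general, and 2 of the members counted for thapsigargin were close to level in Ago2+/+, Tgfbr1 at 0.03 and Tgfbr2 at 0.08. Ratios that were opposite and at least 2-fold in both labels were seen for Bmp4 under tunicamycin (2.40 and -1.27), and for Ltbp2 (4.39 and -1.52) and Inhba (1.02 and -1.58) under thapsigargin. Over all loci this double criterion was met by 6.81% for tunicamycin and 4.69% for thapsigargin. These differences were not tested.

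Between the genotype labels in DMSO, 4 members were at least 2-fold higher in Ago2-/- and none 2-fold lower, against 14.4% of all loci. They were Bmp4 (log2 ratio 2.22), Ltbp2 (2.01), Ltbp1 (1.16) and Tgfb1 (1.00). Inhba (0.93), Tgfb2 (0.84), Tgfbr1 (0.81), Tgfbr2 (0.81) and Tgfb3 (0.52) were higher by less, and Bmp1 was lower (-0.83).

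With tunicamycin, 4 members were at least 2-fold higher in Ago2-/- than in Ago2+/+ and 2 at least 2-fold lower, against 17.3% of all loci. Ltbp2 (2.35), Tgfb3 (2.04), Tgfb2 (1.96) and Bmp1 (1.21) were higher, and Bmp4 (-1.45) and Tgfb1 (-1.05) lower. With thapsigargin, 4 members were at least 2-fold lower in Ago2-/- and none higher, against 13.8% of all loci. These were Ltbp2 (-3.90), Tgfb2 (-2.88), Tgfb3 (-1.70) and Inhba (-1.67), while Tgfb1 (0.02), Bmp4 (-0.03), Tgfbr1 (0.00) and Tgfbr2 (-0.04) were level between the labels. Each of the 3 contrasts uses groups that also enter the stress comparisons, so they are not independent of those.

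The 3 pairs that cross both labels gave much smaller ratios. No member was 2-fold apart between Ago2-/- DMSO and Ago2+/+ tunicamycin (1.04% of all loci were), where the largest member ratio had a size of 0.294. Between Ago2-/- tunicamycin and Ago2+/+ thapsigargin no member was 2-fold apart (0.998% of all loci), with a largest size of 0.595 for Bmp4. Between Ago2-/- thapsigargin and Ago2+/+ DMSO, Tgfb3 alone was 2-fold apart, higher in Ago2-/- thapsigargin by a log2 ratio of 1.15 (1.87% of all loci). The median size of the members' ratio was 0.174, 0.147 and 0.235 in these pairs, whereas in the 7 comparisons of stress or genotype it lay between 0.562 and 1.26. All loci gave 0.0796, 0.105 and 0.147 in the pairs and 0.327 to 0.430 in the 7 comparisons. Small ratios across both labels were therefore found for loci in general and not for the members alone.

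**Figure D3:**
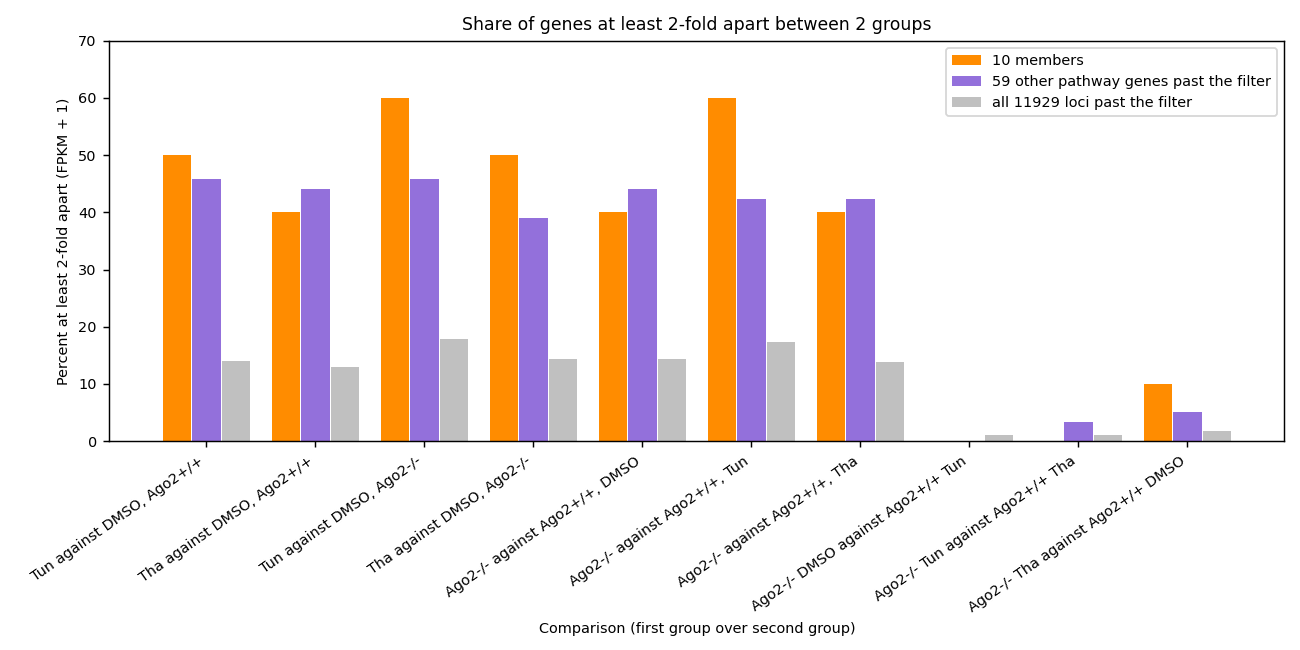
Percent of genes at least 2-fold apart on FPKM + 1 (y axis, bars from 0) in the 10 comparisons (x axis), for the 10 members, 59 other pathway genes and all 11929 loci past the filter. In the 7 comparisons of stress or genotype the members stand at 40 to 60% and all loci at 12.9 to 17.9%, and in the 3 pairs across both labels the bars for all loci are at or below 1.87%.

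Other genes of the pathway were taken from lists of further ligands, receptors and coreceptors, latent complex proteins, secreted antagonists, Smads with their regulators, and known target genes. These lists, too, were chosen with earlier results of these data known. Of 101 such genes 59 passed the filter. After tunicamycin in the Ago2+/+ label 19 were at least 2-fold higher and 8 lower, and after thapsigargin 23 higher and 3 lower. In the Ago2-/- label the counts were 18 higher and 9 lower for tunicamycin and 8 higher and 15 lower for thapsigargin. Between the genotype labels 18 were higher and 8 lower in DMSO, 18 higher and 7 lower with tunicamycin, and 2 higher and 23 lower with thapsigargin. These counts come to 39.0 to 45.8% of the 59 genes, against 12.9 to 17.9% of all loci. In the 3 pairs across both labels they were 0, 2 and 3 genes (0.00, 3.39 and 5.08%). All loci gave 1.04, 0.998 and 1.87% in these pairs.

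Among the other ligands, 5 of 28 passed the filter. Inhbb, for the beta B subunit of the activins, was high where Inhba was low, at 13.3 FPKM in Ago2-/- thapsigargin and 7.73 in Ago2+/+ DMSO, and at most 0.819 elsewhere. Bmp7 was detected at 11.6 FPKM in Ago2+/+ tunicamycin and 10.2 in Ago2-/- DMSO, the high groups of Bmp4, and at no more than 0.00233 in the rest. Gdf15, a distant family member that is also a stress-induced gene, lay at 5.67 and 7.41 FPKM in Ago2+/+ thapsigargin and Ago2-/- tunicamycin and at or below 0.870 in the others, and Inha ranged from 0.521 to 1.70.

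Of 16 further receptors and coreceptors 11 passed. Cd109, a coreceptor that holds back TGF-beta signalling, was low in the 2 groups with high Tgfbr1 and Tgfbr2, at 1.15 FPKM in Ago2+/+ tunicamycin and 1.33 in Ago2-/- DMSO against 5.81 to 13.3 in the rest. The activin type I receptor gene Acvr1b was also lowest in them, at 1.54 and 1.25 FPKM against 3.79 to 6.73. Bmpr1b, a type I receptor gene of the BMP arm, went the other way, at 3.84 and 4.31 FPKM there and at most 0.277 elsewhere. Rgma, for a BMP coreceptor, was highest in Ago2-/- tunicamycin at 4.34 FPKM.

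In the latent complex list 9 of 15 passed. Thbs1, for thrombospondin-1, which can release TGF-beta from its latent form, had 19.2 FPKM under Ago2+/+ DMSO, 97.2 under Ago2+/+ tunicamycin, 246 under Ago2+/+ thapsigargin, 92.0 under Ago2-/- DMSO, 213 under Ago2-/- tunicamycin and 24.3 under Ago2-/- thapsigargin. Its order was close to that of Ltbp2 and Tgfb2. Tll1, a relative of Bmp1, reached 7.69 and 4.58 FPKM in Ago2+/+ thapsigargin and Ago2-/- tunicamycin and at most 0.0478 elsewhere, and the microfibril gene Fbn1 lay at 32.2 and 40.2 FPKM in them and at 9.86 to 20.2 in the rest. Pcolce2, an enhancer of procollagen C-proteinase, was highest in Ago2+/+ DMSO at 16.0 FPKM and lowest in Ago2-/- tunicamycin at 2.34.

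Of the 14 secreted antagonists 7 passed. Fst and Fstl3 code for proteins that trap activins. Fstl3 stood at 18.9 and 17.0 FPKM in Ago2+/+ thapsigargin and Ago2-/- tunicamycin, at 2.42 and 1.89 in Ago2+/+ DMSO and Ago2-/- thapsigargin, and below 0.05 in the other 2. Fst was below 0.5 FPKM in those 2 groups as well and between 6.11 and 13.1 in the rest. Fstl1 reached 222 and 312 FPKM, and Nbl1, for a BMP antagonist, 9.90 and 9.23, in the groups with high Tgfb2 and Tgfb3.

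All 13 Smads and intracellular regulators passed. Over their range 6 of the 13 reached 2-fold, where 32.3% of all loci did. The inhibitory Smad genes, which dampen signalling, were lowest in Ago2+/+ DMSO and Ago2-/- thapsigargin: Smad7 stood at 6.09 and 6.13 FPKM there and at 8.21 to 16.1 in the other groups, and Smad6 at 0.912 and 1.35 against 3.50 to 6.10. Tgif1, for a corepressor of Smad complexes, was high in Ago2+/+ tunicamycin (99.9 FPKM) and Ago2-/- DMSO (111) and lay between 25.9 and 40.3 elsewhere. Smad9 was below 0.12 FPKM in Ago2+/+ DMSO and Ago2-/- thapsigargin and between 1.15 and 3.98 in the others.

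Of 15 known target genes 14 passed, and they fell into more than 1 pattern. Relative to DMSO, 7 were at least 2-fold higher and 2 lower after tunicamycin in the Ago2+/+ label, and 11 higher and none lower after thapsigargin. In the Ago2-/- label the counts were 6 higher and 3 lower after tunicamycin, and 2 higher and 5 lower after thapsigargin. Of all loci, 14.0% (tunicamycin) and 12.9% (thapsigargin) were past 2-fold in either direction in the Ago2+/+ label. The shares in the Ago2-/- label were 17.9% and 14.3%. Col1a1, for the main fibrillar collagen, stood at 521 and 651 FPKM in Ago2+/+ thapsigargin and Ago2-/- tunicamycin, at 112 and 87.1 in Ago2+/+ DMSO and Ago2-/- thapsigargin, and at 6.77 and 5.97 in Ago2+/+ tunicamycin and Ago2-/- DMSO. Acta2 and Tagln were high in the first of these pairs, as given above. Timp3, an inhibitor of matrix proteinases, was between 24.5 and 31.1 FPKM in 4 groups and at or below 0.0261 in Ago2+/+ DMSO and Ago2-/- thapsigargin.

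Of targets outside the naming rule, Id1 and Id2, known targets of the BMP arm, were picked after their values were seen. Id1 stood at 117 FPKM in Ago2+/+ tunicamycin and 128 in Ago2-/- DMSO, the high groups of Bmp4, Bmp7 and Bmpr1b, and at 24.0 to 39.9 in the rest. Id2 stood at 54.4 and 47.6 FPKM in those groups and at 11.1 to 24.5 in the rest. Id3, also picked so, did not follow, with its highest level, 155 FPKM, in Ago2+/+ thapsigargin.

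**Figure D4:**
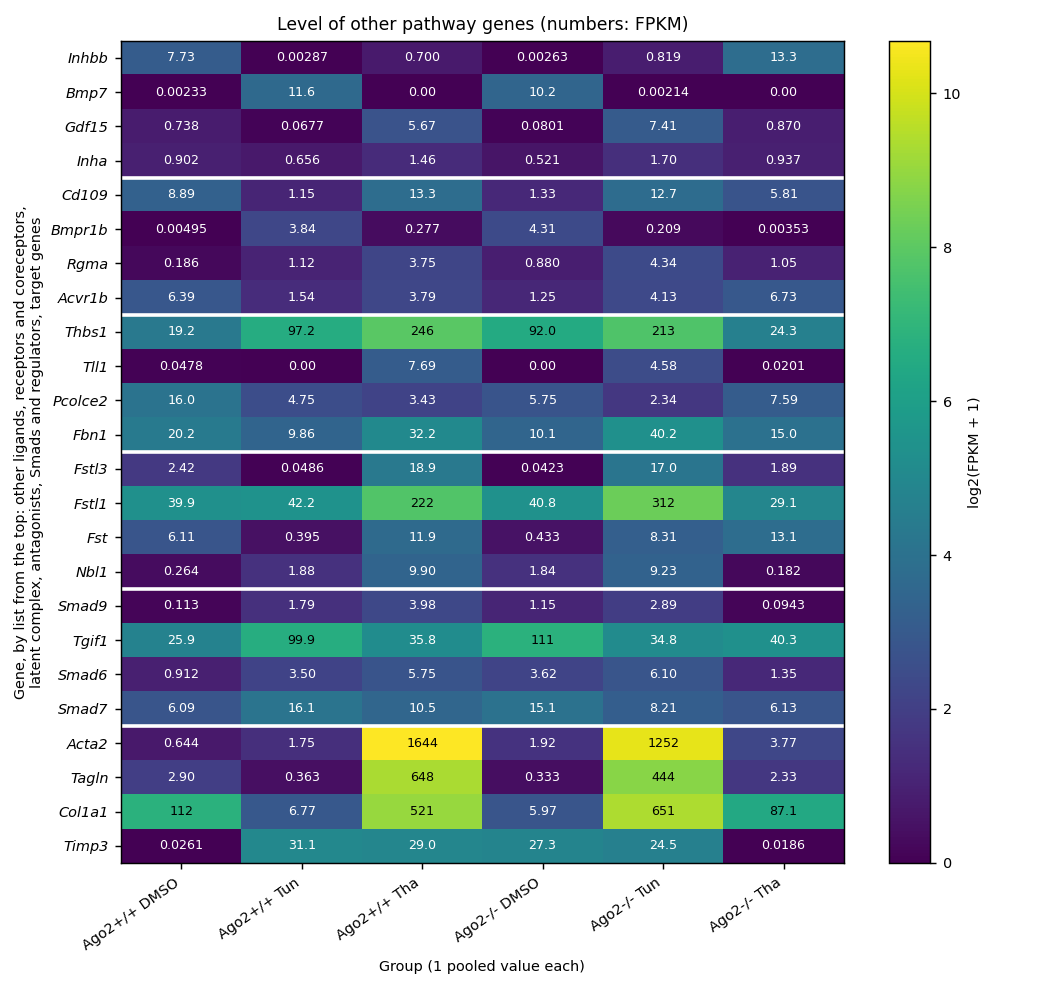
FPKM (numbers) and log2(FPKM + 1) (colour) of 24 other pathway genes (rows, in 6 lists of 4 set apart by white lines) in the 6 labelled groups (columns), 1 pooled value each. Within each of the 3 pairs that cross both labels the columns look alike, as in Acta2, 1644 FPKM in Ago2+/+ Tha and 1252 in Ago2-/- Tun.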

How the data were processed

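RNA-seq libraries of mouse embryonic fibroblasts were examined, 18 in 6 groups of 3. The authors deposited 1 table of 772485 rows, 15 pairs of groups for each of 51499 loci, whose values are FPKM pooled over the libraries of a group. Per the submitters' processing notes the tools were FastQC 0.11.7, HISAT2 2.1.0, StringTie 1.3.4d and Cuffdiff 2.2.1, and the build was GRCm38. How libraries were scaled and whether strand was used is not stated in any source used here. The table also holds the authors' fold changes with their p-values and q-values, which were not used. No column holds values of single libraries.

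The FPKM of each locus and group was read once per group (Python 3.11.15, pandas 2.3.3, numpy 2.4.6), and its repeats over the pairs were checked to be equal. Log2 ratios used FPKM + 1, loci needed a mean of at least 1 FPKM over the 6 groups, and a ratio of at least 2-fold was counted. Pooled values allow no SD and no test. Depth is unknown: low values of loci with 1 transcript lay near whole multiples of a smallest step (within 0.1) in 26.5 to 44.6% of cases per group, where 20% is the share without steps, so reads could not be recovered. Read depth limits the low levels, such as Ltbp2 at 0.190 FPKM, by an amount that cannot be given.

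Groups follow the sample titles, in which AGO2 marks the Ago2-/- and DCR1 the Ago2+/+ groups (by the genotype tag of the DCR1 libraries), and 4 libraries carry conflicting genotype labels. Genes were located with GENCODE M21, and promoter windows came from RefSeq on GRCm38.p6. Named genes are the members, the marker and label-check genes, up to 4 genes per pathway list with the highest range among those past the filter, and 2 single-gene loci most like each member whose range reached 2-fold. The members and all lists were chosen with earlier results of these data known. Alternatives were a pseudocount of 0.1, no filter, a mean of at least 10 FPKM, ratios centred on the median of all loci, and single-gene loci only.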

Additional observations from a re-analysis of the deposited data

Results flagged for a closer look

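For 3 members the response to a stressor went in opposite directions in the Ago2+/+ and Ago2-/- labels and was at least 2-fold in each. Of all loci past the filter, 6.81% met this for tunicamycin and 4.69% for thapsigargin. Under tunicamycin, Bmp4 had a log2 ratio against DMSO of 2.40 in Ago2+/+ and -1.27 in Ago2-/-, a difference of -3.67 (Ago2-/- minus Ago2+/+). Under thapsigargin, Ltbp2 had ratios of 4.39 and -1.52, a difference of -5.91, and Inhba had ratios of 1.02 and -1.58, a difference of -2.60. With 1 pooled value per group these differences were not tested. Each of them rests on groups whose Ago2 level did not follow the genotype label. The groups compared also differed in the Y chromosome genes or the Xist locus. The size for Ltbp2 also rests on low levels, 0.190 FPKM in Ago2+/+ DMSO and 0.680 in Ago2-/- thapsigargin, and depends on the constant added.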

How the results depend on the processing

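Of 450 member ratios recomputed under the alternatives, 443 kept their direction and their side of 2-fold, 6 passed 2-fold newly, 1 no longer did and 0 reversed. Much of this was fixed in advance. The settings without a filter, with a mean of at least 10 FPKM and with single-gene loci only choose loci and cannot change a member's own ratio. Only the pseudocount and the centring could move a ratio, and 94 and 99 ratios stayed the same under them. Centring on the median of all loci took Tgfb1 (Ago2-/- against Ago2+/+ in DMSO, log2 ratio 1.00 to 2 decimals either way) under the threshold. A pseudocount of 0.1 FPKM brought past it Tgfb3 (1.09) and Inhba (1.03) for tunicamycin in Ago2+/+, Tgfb2 (-1.07) for thapsigargin in Ago2-/-, Tgfb2 (1.18) and Inhba (1.02) for the labels in DMSO, and Ltbp2 (1.43) between Ago2-/- thapsigargin and Ago2+/+ DMSO, so that 2 members were past 2-fold in that pair. With it the ratios of Ltbp2 grew without changing side, from 4.39 to 6.38 for thapsigargin and from 2.05 to 3.79 for tunicamycin in Ago2+/+, and from 2.01 to 3.75 for the labels in DMSO. The share of all loci past 2-fold then was 3.58% in that pair and 1.58% between Ago2-/- tunicamycin and Ago2+/+ thapsigargin. With a mean of at least 10 FPKM only 5 members remain, and of these 3 were past 2-fold for tunicamycin in Ago2+/+, 0 for thapsigargin in Ago2+/+, 3 for tunicamycin and 3 for thapsigargin in Ago2-/-, 3 between the labels with tunicamycin, 0 with thapsigargin, and 0 when Ago2-/- thapsigargin was set against Ago2+/+ DMSO, since fewer members were counted. All loci then gave 8.12 to 11.4% in the comparisons of stress or genotype that moved by over 1.5 times and 0.572 to 1.06% in the pairs across both labels. Without a filter the shares were 3.42 to 4.75% and 0.311 to 0.538%, since loci near 0 enter. No paired analysis was possible because the table holds 1 pooled value per group, and leaving out single replicates was not run for the same reason.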
